A study of Mus musculus with 18 samples.

Results

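Aminoacyl-tRNA synthetases are the enzymes that attach each amino acid to its transfer RNA. Their transcripts were measured by RNA sequencing in J774.1 cells, a mouse cell line with macrophage properties. The genes were chosen by a rule on their symbols, with earlier results of these data known. A row was taken when its symbol was a capital letter followed by ars, with or without a closing 1 or 2, or when it was Farsa, Farsb, Eprs or Eprs1. This gave 37 of the 18204 genes in the table, of which 20 encode cytosolic and 17 encode mitochondrial enzymes. All 37 lay above the expression limit used for testing, as did 16383 genes in all.

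The 18 samples formed 6 groups of 3 biological replicates. Wildtype cells and cells in which Ctbp1 and Ctbp2 were both disrupted with Cas9 (Ctbp1/2 dKO) were each treated for 4 h with vehicle, with MTOB at 1.5 mM or with 4-Cl-HIPP at 250 µM. MTOB is 4-methylthio-2-oxobutanoate, a keto acid bound by the CTBP corepressors where their substrates bind, and 4-Cl-HIPP is a chlorinated phenyl oxime acid derived from it. The vehicle was PBS/DMSO, and both inhibitors share its 3 samples in each genotype. The study asked whether the effects of these CTBP inhibitors need CTBP. The cell clones, wildtype and knockout, were grown out from single cells after electroporation and sorting, so a difference between genotypes cannot be told apart from a difference between clones.

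Each synthetase recognises its amino acid and the matching tRNAs, and the charged tRNA then carries the amino acid to the ribosome. The first letter of a symbol is the one-letter code of the amino acid, and a closing 2 marks the enzyme that works inside mitochondria, which is encoded in the nucleus and imported. Phenylalanyl-tRNA synthetase of the cytosol is built from the products of Farsa and Farsb, and Eprs joins the glutamyl and prolyl enzymes in 1 protein. Gars and Kars each encode both a cytosolic and a mitochondrial form, and mitochondria have no glutaminyl enzyme of their own but amidate a misacylated tRNA. Several cytosolic enzymes sit in a multisynthetase complex held by the scaffold proteins Aimp1, Aimp2 and Eef1e1. Many cytosolic synthetase genes are targets of ATF4, the transcription factor of the amino acid response, which is translated when uncharged tRNA activates the kinase GCN2.

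Values were TPM, a transcript level that is scaled for transcript length and for the library total. The TPM of each sample summed to between 999766 and 999897 over the listed genes, and the sequencing depth was unknown. Replicates of a group correlated with r between 0.983 and 0.987. Ctbp1 was between 170.1 and 238 TPM in the 9 wildtype samples and between 19.7 and 31.5 TPM in the 9 dKO samples, and Ctbp2 between 87.8 and 96.9 TPM and between 68.5 and 81.9 TPM. The study reported a premature stop and frameshift in both genes and loss of both proteins by western blot. RNA levels do not measure that loss. The macrophage markers Csf1r, Cd68, Lyz2 and Spi1 were between 209 and 942 TPM in all samples, Fcgr1 between 30.7 and 62.6 TPM, Itgam between 11.3 and 65.3 TPM and Adgre1 between 6.70 and 107 TPM. A further macrophage marker, Mertk, had no row. Of 16 markers of T cells, B cells, fibroblasts and epithelial cells, the 6 with a row were at most 1.05 TPM.

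Cytosolic synthetase transcripts were more abundant, and for the most part more even between replicates, than mitochondrial ones. Mean levels over the 18 samples ran from 71.1 TPM for Wars, the tryptophanyl enzyme, to 326 TPM for Vars, the valyl enzyme, among the cytosolic genes. Among the mitochondrial genes they ran from 5.18 TPM for Mars2, the methionyl enzyme, to 68.2 TPM for Tars2, the threonyl enzyme. Every cytosolic gene therefore had a higher mean level than every mitochondrial gene. The coefficient of variation within groups had a median of 4.66% for cytosolic genes (range 2.71% to 10.4%) and of 9.28% for mitochondrial genes (range 4.91% to 19.9%). Fars2, the phenylalanyl enzyme, and Wars2, the tryptophanyl enzyme, were the most variable between replicates. The mean normalized count was 635 to 4298 for cytosolic genes and 77.0 to 1184 for mitochondrial genes.

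In wildtype vehicle samples Vars was at 322, 337 and 327 TPM, and in dKO vehicle samples at 341, 381 and 375 TPM. Wars was at 74.6, 75.7 and 73.2 TPM in the former and at 67.3, 69.6 and 71.2 TPM in the latter. Vars thus lay wholly higher and Wars wholly lower in the dKO vehicle samples, though neither difference passed the test described below. For Tars2, at the top of the mitochondrial range, the wildtype vehicle samples were at 71.4, 74.8 and 69.2 TPM and the dKO vehicle samples at 78.0, 70.5 and 68.3 TPM. Mars2, at the bottom, was at 5.58, 5.96 and 5.34 TPM and at 5.03, 5.85 and 4.72 TPM. The vehicle groups overlapped for both of these mitochondrial genes.

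Promoter sequences are shown for the synthetases called below for an inhibitor effect or for the genotype under vehicle, where a sequence was at hand, to set the 2 classes side by side at their start sites. They were taken from RefSeq on mouse build GRCm38.p6, which differs from the GRCm39 build of the measurements, and cover 250 bases before to 50 bases after each start. A sequence was at hand for 27 of the 37 genes, 13 cytosolic and 14 mitochondrial, and for none of Nars, Rars, Vars and Lars. Iars, the cytosolic isoleucyl enzyme, is added as the counterpart of Iars2. Capitals mark a match, on either strand, to the core of the ATF4-C/EBP element (TGATGNAA), to NRF1 (GCGC and TGCGC with 1 base between them), a factor of nuclear genes for mitochondrial proteins, or to the ETS motif bound by GABP (CCGGAAGT).
Aars: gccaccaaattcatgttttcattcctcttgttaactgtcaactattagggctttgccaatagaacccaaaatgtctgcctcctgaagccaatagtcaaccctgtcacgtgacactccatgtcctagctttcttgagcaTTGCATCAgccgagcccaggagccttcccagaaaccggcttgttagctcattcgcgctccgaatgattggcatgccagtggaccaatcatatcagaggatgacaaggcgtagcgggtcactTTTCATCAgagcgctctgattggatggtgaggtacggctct
Iars: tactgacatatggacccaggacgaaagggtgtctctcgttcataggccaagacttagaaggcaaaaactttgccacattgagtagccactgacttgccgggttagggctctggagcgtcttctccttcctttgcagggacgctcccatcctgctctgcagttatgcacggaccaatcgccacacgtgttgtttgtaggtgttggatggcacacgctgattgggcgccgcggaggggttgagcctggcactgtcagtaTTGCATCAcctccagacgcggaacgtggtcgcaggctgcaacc
Qars: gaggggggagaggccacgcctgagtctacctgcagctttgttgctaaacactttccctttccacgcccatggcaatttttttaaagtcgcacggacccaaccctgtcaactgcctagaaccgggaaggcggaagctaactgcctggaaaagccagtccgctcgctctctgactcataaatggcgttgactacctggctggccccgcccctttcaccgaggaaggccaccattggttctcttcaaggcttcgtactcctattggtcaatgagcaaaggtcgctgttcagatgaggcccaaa
Iars2: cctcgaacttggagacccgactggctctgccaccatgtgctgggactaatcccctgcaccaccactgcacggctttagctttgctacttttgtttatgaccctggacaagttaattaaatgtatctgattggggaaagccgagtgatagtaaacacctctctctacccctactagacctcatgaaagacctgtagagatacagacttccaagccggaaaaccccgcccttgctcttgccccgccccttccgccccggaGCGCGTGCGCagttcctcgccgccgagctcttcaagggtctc
Lars2: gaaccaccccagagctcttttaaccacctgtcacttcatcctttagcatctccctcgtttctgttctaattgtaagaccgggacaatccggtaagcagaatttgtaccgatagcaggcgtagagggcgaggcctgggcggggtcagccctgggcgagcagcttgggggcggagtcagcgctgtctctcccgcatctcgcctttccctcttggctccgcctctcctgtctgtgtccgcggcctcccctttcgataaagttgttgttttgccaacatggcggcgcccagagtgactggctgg
These windows lie at chr8:111033592-111033891 on the plus strand (Aars), chr13:49681880-49682179 on the plus strand (Iars), chr9:108507755-108508054 on the plus strand (Qars), chr1:185329352-185329651 on the minus strand (Iars2) and chr9:123366677-123366976 on the plus strand (Lars2).

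The capitals in Aars are 2 matches to the ATF4-C/EBP core, and Iars has 1. The same core was found in 5 of the 13 cytosolic promoters (38.5%), those of Aars, Gars, Iars, Tars and Yars, in 0 of the 14 mitochondrial promoters and in 4.06% of 27025 promoters of all genes. The capitals in Iars2 are a match to NRF1, which was found in 3 of 13 cytosolic promoters (23.1%), in 2 of 14 mitochondrial promoters (14.3%) and in 4.78% of all promoters. The ETS motif was found in 2 of 13 (15.4%), in 1 of 14 (7.14%) and in 4.0%. Qars and Lars2 held none of the 3 motifs in this window. A match describes the letters and does not show that a factor binds.

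MTOB moved some synthetase genes, each by less than 1.5-fold. In wildtype cells their share was close to the 7.26% of all genes tested that were called. In dKO cells it was above the 6.59% of all genes, but a fit of the dKO vehicle and MTOB samples alone called none. In wildtype cells Nars and Rars rose and Iars2 fell, and in dKO cells Nars rose again while Iars2, Lars2, Qars and Vars fell. The mitochondrial genes lay mostly below vehicle in both genotypes, whereas the cytosolic genes were spread around 0. Fold changes are differences of log2(TPM + 1), tested with limma and adjusted by the Benjamini-Hochberg procedure over the 16383 genes. A gene was called at an adjusted p below 0.05. In such bulk samples, a change in RNA per cell and a change in the share of cells that make it cannot be told apart.

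In wildtype cells, MTOB changed 3 of 37 synthetases (2 higher, 1 lower), against 7.26% of all genes tested (3.8% higher, 3.46% lower). It changed 5 of 37 in dKO cells (1 higher, 4 lower), against 6.59% of all genes tested (3.08% higher, 3.51% lower). None of these changes exceeded 1.5-fold. Of all genes tested, 2% were called with a change above 1.5-fold in wildtype and 1.6% in dKO cells. The 2 inhibitors were compared with the same vehicle samples, and these also enter the genotype comparison.

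**Figure D1:**
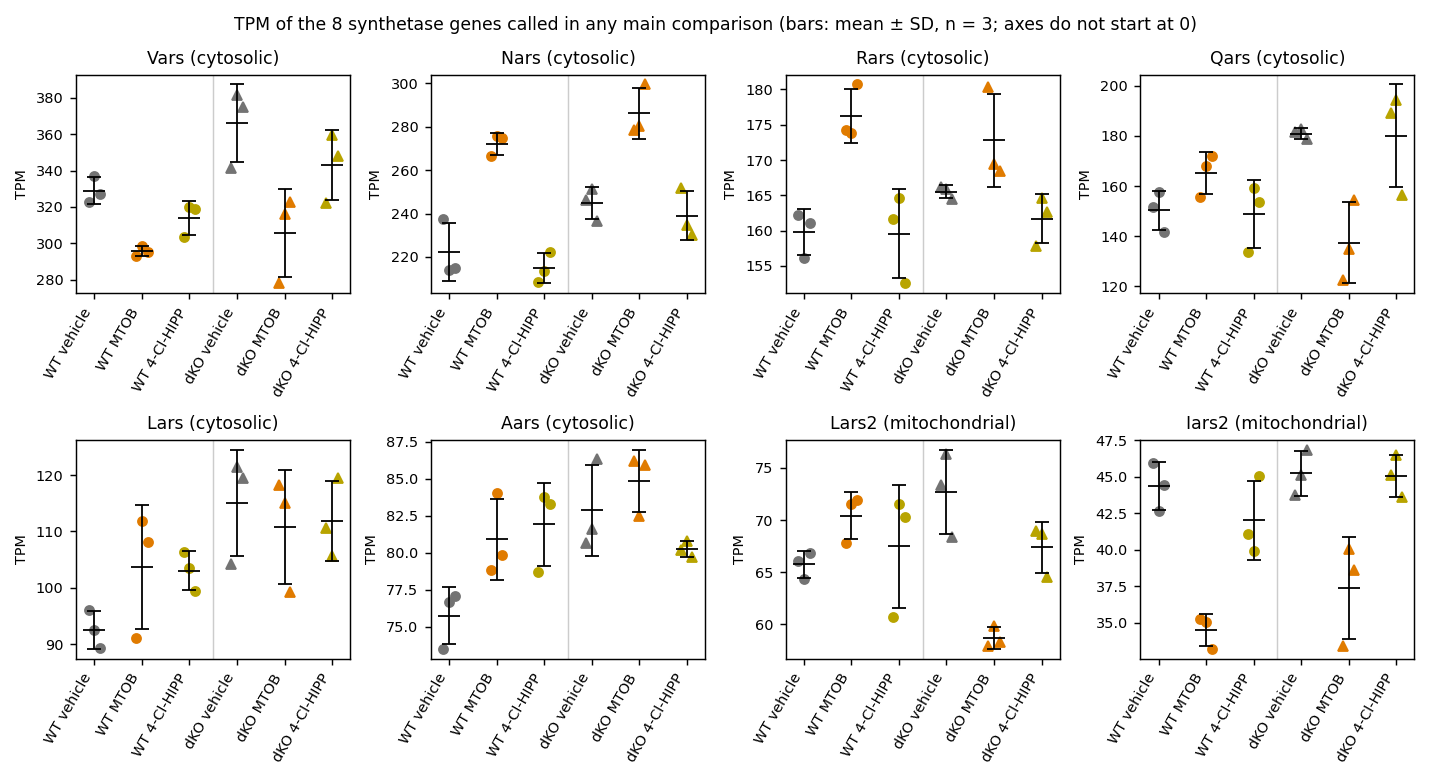
TPM of the 8 synthetase genes called for an inhibitor effect or for the genotype under vehicle, in each of the 18 samples (points), by group on the x axis, with the mean and SD of 3 replicates; the y axes do not start at 0. Nars samples with MTOB lie above 266 TPM and all other samples below 252 TPM, and Lars2 lies at 57.9 to 59.8 TPM in dKO samples with MTOB.

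Nars encodes the asparaginyl enzyme (ENSMUSG00000024587, GRCm39 chr18:64632718-64649723, minus strand). It was at 238, 214 and 215 TPM in wildtype vehicle samples and at 266, 276 and 275 TPM with MTOB. The dKO samples were at 246, 251 and 237 TPM with vehicle and at 278, 281 and 299.5 TPM with MTOB. The treated samples lay above all vehicle samples in each genotype. The log2 fold change was 0.29 (SE 0.05, adjusted p = 0.000902) in wildtype and 0.22 (SE 0.05, adjusted p = 0.00818) in dKO cells, and the difference of these effects was 0.07 (95% interval -0.07 to 0.21, adjusted p = 0.897). With 4-Cl-HIPP, Nars was at 209, 213 and 222 TPM in wildtype and at 252, 235 and 230.2 TPM in dKO cells, overlapping vehicle in both.

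The genes whose log2(TPM + 1) ran most like that of Nars over the 18 samples were Abcc1 (Pearson r = 0.961), Adam8 (r = 0.947), Ptprj (r = 0.944), Daxx (r = 0.943) and Alcam (r = 0.943). None of these is a synthetase. They are given as a description of samples that share treatment and genotype.

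Rars encodes the arginyl enzyme of the multisynthetase complex (ENSMUSG00000018848, chr11:35699207-35725375, minus strand). It was at 162, 156 and 161 TPM in wildtype vehicle samples and at 174, 174 and 181 TPM with MTOB. The dKO samples were at 166, 166 and 165 TPM and at 180.4, 169 and 169 TPM. The groups did not overlap in either genotype, but the change passed the test in wildtype cells alone, where the log2 fold change was 0.14 (SE 0.04, adjusted p = 0.0290). In dKO cells it was 0.06 (SE 0.04, adjusted p = 0.418), and the difference of the effects was 0.08 (95% interval -0.03 to 0.19, adjusted p = 0.809). The wildtype call was lost when any sample of these groups was left out, with adjusted p up to 0.115.

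Vars (ENSMUSG00000007029, chr17:35219871-35235305, plus strand) was at 293, 298 and 295 TPM with MTOB in wildtype cells, below the vehicle samples given above. In dKO cells with MTOB it was at 278, 316 and 323 TPM, again below all vehicle samples. The dKO vehicle group had the highest mean of the 6 groups. The log2 fold change was -0.15 (SE 0.06, adjusted p = 0.127) in wildtype and -0.26 (SE 0.06, adjusted p = 0.00951) in dKO cells, and the difference of the effects was 0.11 (95% interval -0.06 to 0.27, adjusted p = 0.851).

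Qars encodes the glutaminyl enzyme (ENSMUSG00000032604, chr9:108384905-108393140, plus strand). It was at 182, 183 and 179 TPM in dKO vehicle samples and at 123, 135 and 155 TPM with MTOB. In wildtype cells it was at 151, 158 and 142 TPM with vehicle and at 156, 168 and 172 TPM with MTOB. The dKO groups did not overlap and the wildtype groups did. The log2 fold change was -0.40 (SE 0.09, adjusted p = 0.0139) in dKO and 0.14 in wildtype cells, and the difference of the effects was 0.54 (SE 0.13, 95% interval 0.26 to 0.81), which did not pass the test over all genes (adjusted p = 0.211).

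Among cytosolic genes as a group, 13 of 20 lay above 0 and 7 below in wildtype cells, with a median log2 fold change of 0.027. In dKO cells 8 lay above and 12 below, with a median of -0.014, which became 0.016 under median-of-ratios scaling. Over all genes tested, 46.3% lay above 0 with a median of -0.0057 in wildtype, and 45.8% with a median of -0.013 in dKO cells. Genes in the same range of mean normalized count had medians of -0.021 (44% above 0) and -0.043 (38.1% above 0). Samples with MTOB lay wholly above vehicle for Nars, Rars and Aars in wildtype and for Nars and Rars in dKO cells, where 10.6% and 9.51% of all genes did. They lay wholly below for Vars in wildtype and for Vars, Qars and Kars in dKO cells, where 12% and 11.5% of all genes did.

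Iars2 encodes the mitochondrial isoleucyl enzyme (ENSMUSG00000026618, chr1:185016803-185061612, minus strand). It was at 45.9, 42.6 and 44.4 TPM in wildtype vehicle samples and at 35.2, 35.0 and 33.2 TPM with MTOB. The dKO samples were at 43.7, 45.1 and 46.8 TPM and at 33.4, 40.0 and 38.6 TPM. No treated sample reached a vehicle sample in either genotype. The log2 change with MTOB was -0.35 (SE 0.06, adjusted p = 0.00204) in wildtype and -0.27 (SE 0.06, adjusted p = 0.0147) in dKO cells, and the difference of the effects was -0.08 (95% interval -0.27 to 0.11, adjusted p = 0.917). The cytosolic counterpart Iars was at 103, 107 and 107 TPM with vehicle and at 106, 102 and 104 TPM with MTOB in wildtype cells, which overlapped. Iars2 shares 2884 exon bases (21.5% of its own) with Rab3gap2 on the opposite strand, and the library kit was unstranded, so reads there cannot be told apart by strand.

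Lars2 encodes the mitochondrial leucyl enzyme (ENSMUSG00000035202, chr9:123195952-123291731, plus strand). It was at 73.4, 76.4 and 68.3 TPM in dKO vehicle samples and at 57.9, 59.8 and 58.3 TPM with MTOB. In wildtype cells it was at 66.1, 64.3 and 66.8 TPM with vehicle and at 67.8, 71.5 and 71.9 TPM with MTOB. Treated samples thus lay wholly below vehicle in dKO and wholly above it in wildtype cells. The log2 fold change was -0.30 (SE 0.06, adjusted p = 0.00367) in dKO and 0.10 (SE 0.06, adjusted p = 0.407) in wildtype cells. The difference of the effects was 0.40 (SE 0.08, 95% interval 0.23 to 0.57), with an adjusted p of 0.106 over all genes. Of all genes tested, 0.0916% were called for a difference of the MTOB effect, and 0 of the 37 synthetases were. At an unadjusted p below 0.05 there were 3 synthetases, Lars2, Qars and Nars2, the mitochondrial asparaginyl enzyme, against 6.85% of all genes.

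Of the 17 mitochondrial genes, 5 lay above 0 and 12 below in wildtype cells with MTOB, with a median log2 fold change of -0.17. In dKO cells 1, Fars2, lay above 0 and 16 lay below, with a median of -0.22. Genes in the same range of mean normalized count had medians of -0.023 (44.6% above 0) and -0.030 (43% above 0). In wildtype cells the treated samples lay wholly below vehicle for Iars2, Sars2, Tars2, Rars2 and Aars2 and wholly above it for Lars2, where 12% and 10.6% of all genes did. In dKO cells they lay wholly below it for Iars2, Lars2, Cars2, Sars2, Aars2 and Tars2, where 11.5% of all genes did.

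Most of these genes did not pass the test on their own. Sars2, the seryl enzyme, had the smallest adjusted p of the uncalled mitochondrial genes in wildtype cells (log2 fold change -0.30, SE 0.09, adjusted p = 0.0614). Cars2, the cysteinyl enzyme, had it in dKO cells (log2 fold change -0.34, SE 0.10, adjusted p = 0.0592). Mars2 was at 5.32, 4.80 and 5.59 TPM with MTOB in wildtype and at 3.42, 5.06 and 4.62 TPM in dKO cells, overlapping vehicle in both. Tars2 was at 62.7, 57.8 and 66.5 TPM and at 63.9, 62.9 and 66.7 TPM, below all vehicle samples in both, without passing the test (adjusted p = 0.114 and 0.236).

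**Figure D2:**
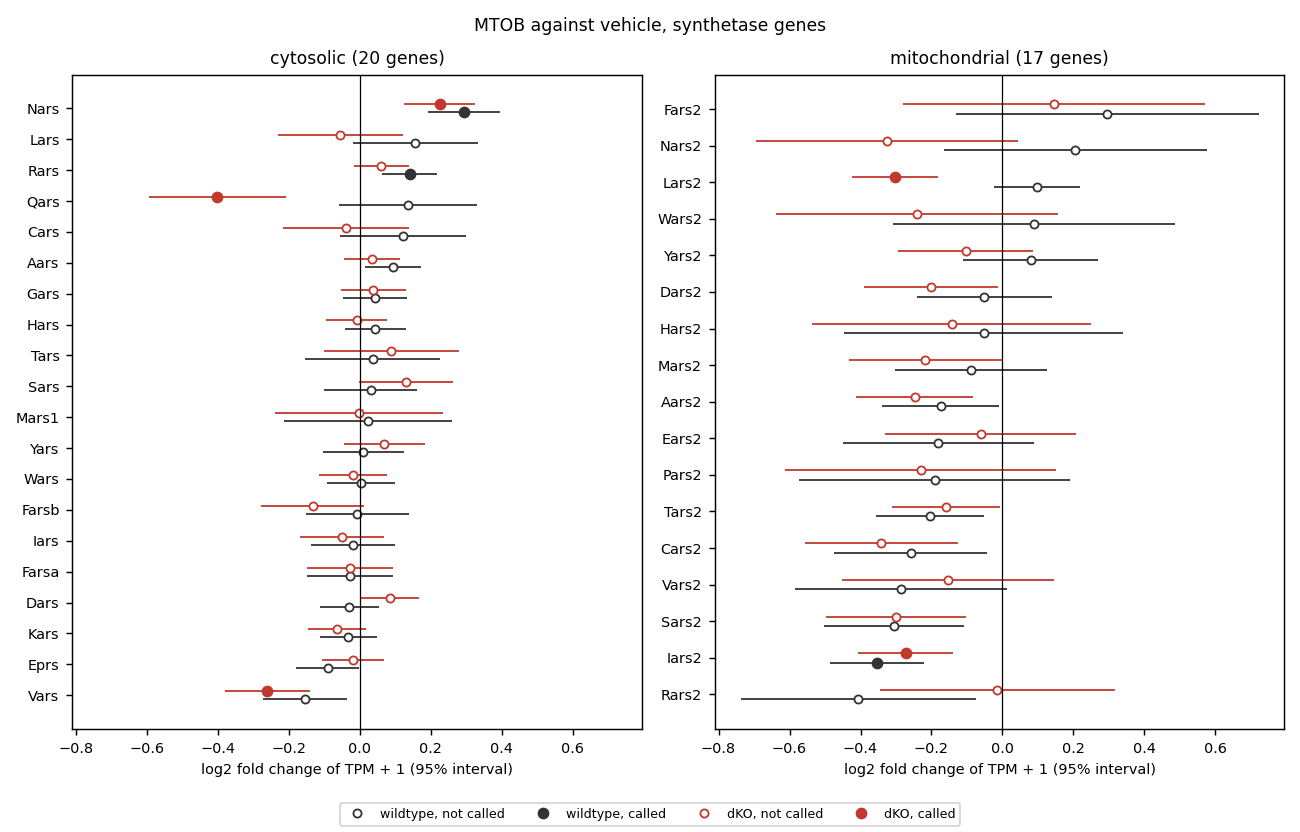
Log2 fold change of TPM + 1 for MTOB against vehicle (x axis) for each cytosolic (left) and mitochondrial (right) synthetase, in wildtype (black) and dKO (red) cells, with 95% intervals; filled points passed the test. Most mitochondrial points lie to the left of 0, with medians of -0.17 and -0.22, and all points lie between -0.41 and 0.30.

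In dKO cells the calls of Nars and Lars2 held with each sample left out in turn, and those of Vars, Qars and Iars2 did not. Without dKO MTOB replicate 1, the lowest of its group for Vars, Qars and Iars2, 3 synthetases were called and Qars and Iars2 were lost. Without dKO vehicle replicate 2, 3 were called and Vars and Qars were lost, and without dKO vehicle replicate 3, 4 were called and Iars2 was lost. A fit of the dKO vehicle and MTOB samples alone called 0, with adjusted p from 0.0542 for Lars2 to 0.183 for Vars. In wildtype cells Nars and Iars2 kept their calls under all 15 settings tried.

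For 14 amino acids the cytosol and the mitochondrion each have 1 gene of their own among the 37 synthetases. Tarsl2, a threonyl-tRNA synthetase-like gene outside the symbol rule, was not counted for threonine. With MTOB the cytosolic gene had the higher log2 fold change of the pair in 12 of 14 in wildtype cells, with a median difference of 0.12. This was so for 13 of 14 in dKO cells, with a median difference of 0.24. The exceptions were tryptophan and tyrosine in wildtype cells and valine in dKO cells. With 4-Cl-HIPP the cytosolic gene was higher in 8 and 7 of 14, and in the genotype comparison under vehicle in 8 of 14.

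Summed over each class, the mitochondrial synthetases came to 529 ± 12.9 TPM with vehicle and 494 ± 7.67 TPM with MTOB in wildtype cells (SD, n = 3). In dKO cells they came to 559 ± 14.2 TPM and 489 ± 5.45 TPM. The 6 samples with MTOB lay between 483 and 502 TPM, below the other 12 samples, which lay between 510.5 and 572 TPM. The cytosolic synthetases came to 2719 ± 32.4 TPM with vehicle and 2791 ± 37.7 TPM with MTOB in wildtype cells, and to 2890.2 ± 40.6 TPM and 2848 ± 24.1 TPM in dKO cells. In the cytosolic class the MTOB and vehicle samples overlapped in both genotypes.

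**Figure D3:**
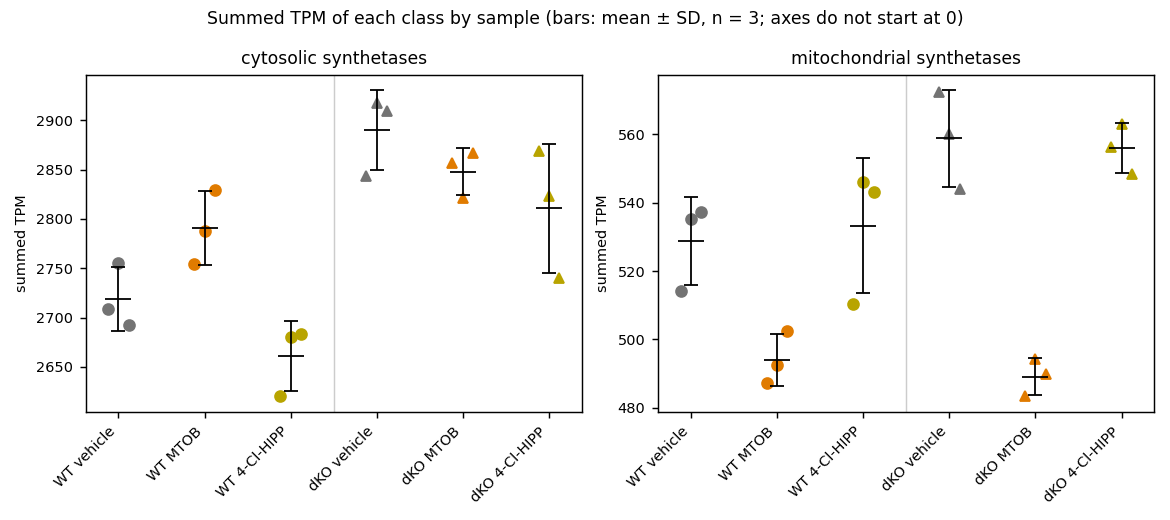
Summed TPM of the 20 cytosolic (left) and 17 mitochondrial (right) synthetases in each of the 18 samples (points), by group on the x axis, with the mean and SD of 3 replicates; the y axes do not start at 0. The mitochondrial sum lies between 483 and 502 TPM in the 6 samples with MTOB and above 510 TPM in all others.

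The 4-Cl-HIPP samples showed no called synthetase in either genotype. In wildtype cells limma called 0 of 37, against 0.342% of all genes tested, and 5 had an unadjusted p below 0.05, against 8.19% of all genes. For dKO cells it called 0 of 37, against 0.494%, and 2 had an unadjusted p below 0.05, against 8.48%. The smallest adjusted p was that of Eprs in wildtype cells (log2 fold change -0.16, SE 0.04, adjusted p = 0.161). In dKO cells it was that of Farsb (log2 fold change -0.19, SE 0.07, adjusted p = 0.382).

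The genes that MTOB changed gave small values with 4-Cl-HIPP. For Iars2 the log2 fold change was -0.08 (95% interval -0.21 to 0.06) in wildtype and -0.0050 (-0.14 to 0.13) in dKO cells. For Nars it was -0.05 (-0.15 to 0.05) and -0.03 (-0.14 to 0.07), and for Qars -0.02 (-0.21 to 0.18) and -0.01 (-0.21 to 0.18). Lars2 gave 0.03 (-0.09 to 0.15) and -0.11 (-0.23 to 0.01). Rars gave -0.0026 (-0.08 to 0.08) and -0.03 (-0.11 to 0.04), and Vars gave -0.07 (-0.19 to 0.05) and -0.09 (-0.21 to 0.03). The Vars samples with 4-Cl-HIPP lay wholly below vehicle in wildtype cells and overlapped it in dKO cells. The doses of the inhibitors differed, so their effects are set side by side without a test between them.

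As a group, the cytosolic genes lay mostly below 0 with 4-Cl-HIPP, 17 of 20 in wildtype and 16 of 20 in dKO cells, by a small amount. The medians were -0.027 and -0.037, beside 0.010 and 0.0043 over all genes, of which 53.3% and 51.9% lay above 0. Genes in the same range of mean normalized count had medians of -0.0051 (53% below 0) and -0.0086 (55% below 0). The mitochondrial medians were -0.060, with 10 of 17 below 0, and -0.039, with 11 of 17 below 0. Genes in the mitochondrial count range had medians of 0.018 (43.5% below 0) and 0.0099 (46.3% below 0). In wildtype cells the treated samples lay wholly below vehicle for 7 of the 37 genes and wholly above for 2, Aars and Lars, beside 4.94% and 7.65% of all genes. In dKO cells they lay wholly below for 4 and wholly above for 0, beside 5.73% and 8.01%. None of the 37 was called for a difference of the 4-Cl-HIPP effect between genotypes, nor was any other gene (0%), and at an unadjusted p below 0.05 there were 2, Aars and Farsb, beside 4.52% of all genes.

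**Figure D4:**
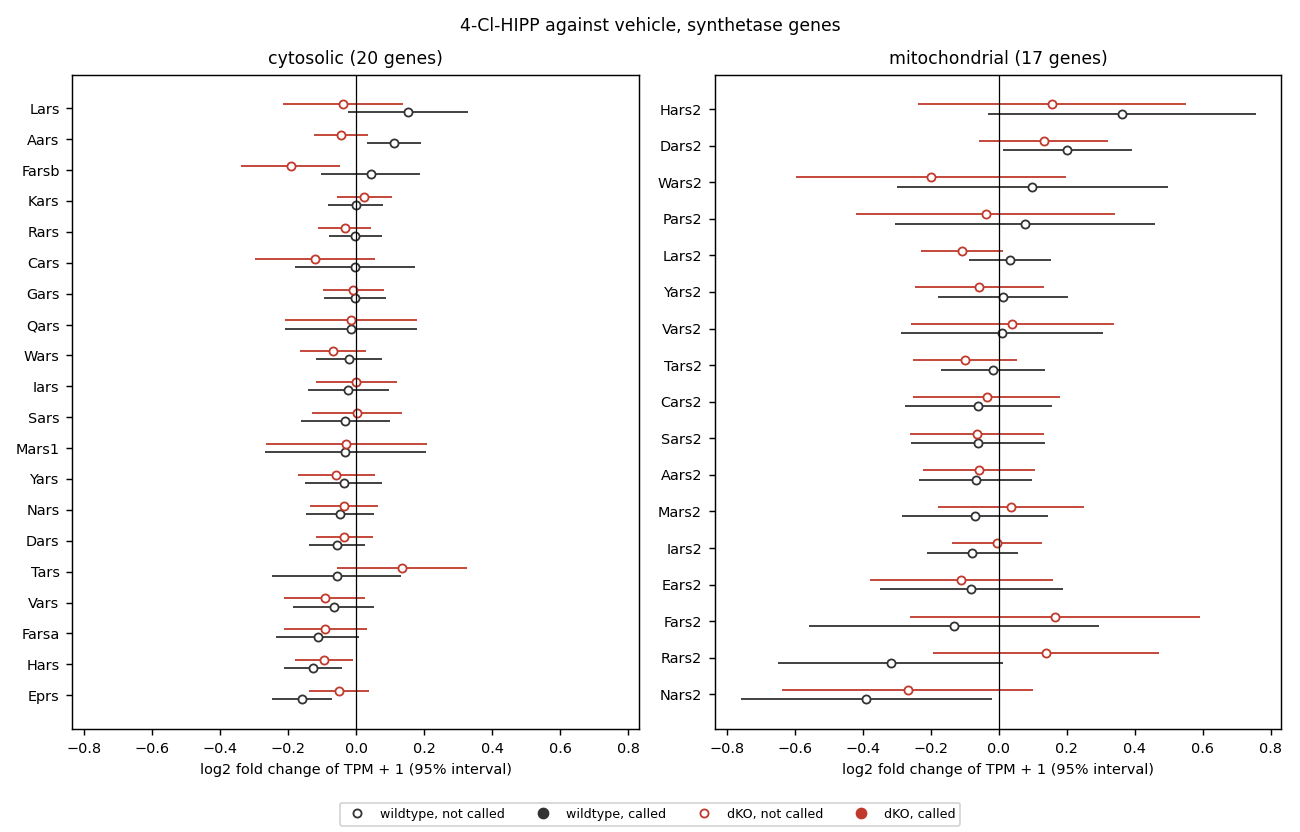
Log2 fold change of TPM + 1 for 4-Cl-HIPP against vehicle (x axis) for each cytosolic (left) and mitochondrial (right) synthetase, in wildtype (black) and dKO (red) cells, with 95% intervals. No gene passed the test, so every point is open, and the cytosolic medians are -0.027 and -0.037.

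Between the genotypes under vehicle, Lars and Aars were higher in dKO than in wildtype cells, and the other 35 synthetases did not pass the test. Limma thus called 2 of 37, where 10.8% of all genes tested were called (7.07% higher, 3.72% lower). At an unadjusted p below 0.05 there were 9 higher and 1 lower, against 21.4% of all genes in either direction. Of the cytosolic genes 16 of 20 lay above 0 with a median of 0.087, and of the mitochondrial genes 12 of 17 with a median of 0.14, beside 52.5% and a median of 0.012 over all genes. The dKO samples lay wholly above wildtype for 10 cytosolic and 3 mitochondrial genes and wholly below for Wars and Rars2, the mitochondrial arginyl enzyme, where 15.1% and 11% of all genes did.

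Lars encodes the cytosolic leucyl enzyme, which also senses leucine for the growth kinase mTORC1 (ENSMUSG00000024493, chr18:42335349-42395259, minus strand). It was at 96.0, 92.4 and 89.3 TPM in wildtype and at 104, 122 and 119 TPM in dKO vehicle samples. The groups did not overlap. With vehicle the log2 fold change was 0.31 (SE 0.08, adjusted p = 0.0240). Under MTOB it was 0.10 (SE 0.08, adjusted p = 0.574), with samples at 91.1, 112 and 108 TPM in wildtype and at 118, 115 and 99.3 TPM in dKO cells. Under 4-Cl-HIPP it was 0.12 (SE 0.08, adjusted p = 0.495).

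Aars encodes the alanyl enzyme (ENSMUSG00000031960, chr8:111754391-111784296, plus strand). It was at 73.5, 76.7 and 77.1 TPM in wildtype and at 80.6, 81.6 and 86.3 TPM in dKO vehicle samples. These groups did not overlap either. With vehicle the log2 fold change was 0.13 (SE 0.04, adjusted p = 0.0372). Under MTOB it was 0.07 (SE 0.04, adjusted p = 0.308) and under 4-Cl-HIPP -0.03 (SE 0.04, adjusted p = 0.752). Aars shares 1326 exon bases (12.1% of its own) with Exosc6 on the same strand.

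The calls of Lars and Aars rested on few samples. Without wildtype vehicle replicate 2 or 3, or dKO vehicle replicate 2 or 3, neither was called. The call of Aars was also lost under median-of-ratios scaling and without the variance trend, which left Lars alone, and quantile normalization left 0 calls. Over the 15 settings tried, Lars lost its call in 6 and Aars in 9.

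The genotype difference in the treated samples gave other genes. Under MTOB, Dars, the cytosolic aspartyl enzyme, was higher in dKO cells (log2 fold change 0.13, SE 0.04, adjusted p = 0.0358) and Lars2 lower (-0.26, SE 0.06, adjusted p = 0.00626), 2 of 37 where 11.2% of all genes were called. Dars was at 136, 133 and 129.8 TPM in wildtype and at 148, 137 and 153 TPM in dKO samples with MTOB. Under 4-Cl-HIPP, Wars was lower in dKO cells (-0.15, SE 0.04, adjusted p = 0.0462), 1 of 37 where 10.2% of all genes were called. Wars was at 69.7, 74.6 and 76.2 TPM in wildtype and at 68.7, 66.4 and 63.3 TPM in dKO samples with 4-Cl-HIPP. Neither pair of groups overlapped. Of the 16383 genes tested, 2199 lay wholly above wildtype in dKO cells under MTOB. Wars lay wholly below wildtype in dKO cells under all 3 treatments. Of all genes tested, 1803 did so under vehicle, 1652 under MTOB and 1764 under 4-Cl-HIPP. The share of genes that did so under all 3 was not computed. The call of Dars was lost without wildtype MTOB replicate 2 or 3 or dKO MTOB replicate 1 or 3 (adjusted p from 0.0885 to 0.151), and that of Wars without 4-Cl-HIPP replicate 2 or 3 of either genotype (0.0959 to 0.183). Each was lost in 8 of the 15 settings tried, with adjusted p up to 0.223 for Dars. Both were lost without the variance trend, with the replicate block and when only the compared groups were fitted, and Dars also under median-of-ratios scaling and Wars with a pseudocount of 0.1. Lars2 was called under all 15.

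**Figure D5:**
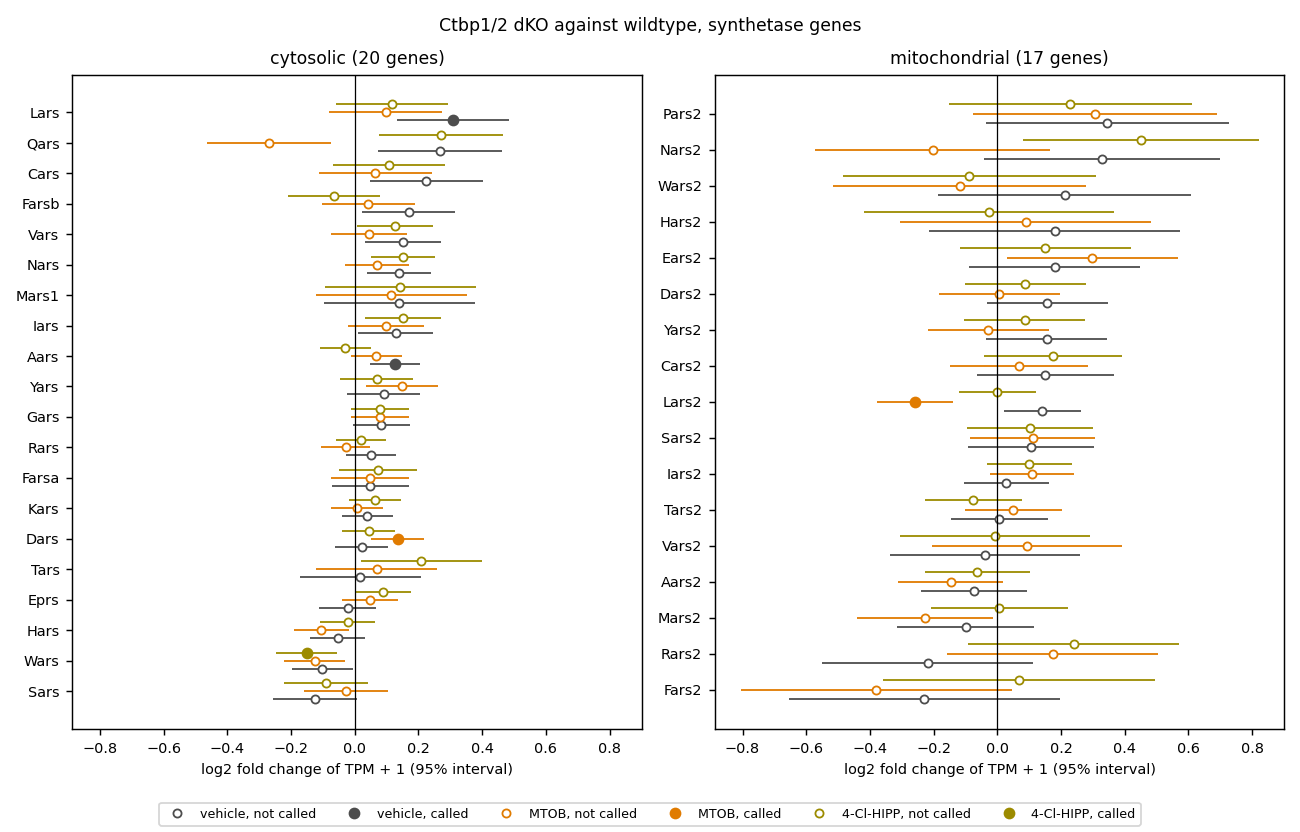
Log2 fold change of TPM + 1 for dKO against wildtype cells (x axis) for each cytosolic (left) and mitochondrial (right) synthetase under vehicle (grey), MTOB (orange) and 4-Cl-HIPP (olive), with 95% intervals; filled points passed the test. Qars and Lars2 lie at 0.27 and 0.14 under vehicle and at -0.27 and -0.26 under MTOB.

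Partners of the synthetases were counted in a list of 15 genes, most of them for the complex scaffold, tRNA amidation, editing and mitochondrial formylation. The list also held Tarsl2, Sepsecs, Pstk and Trnt1, which have none of these roles. With MTOB 3 of 15 fell and 0 rose in wildtype cells, with a median log2 fold change of -0.14, beside 3.46% lower, 3.8% higher and a median of -0.0057 over all genes. These were Tarsl2, a threonyl-tRNA synthetase-like gene (-0.32, SE 0.08, adjusted p = 0.0174), Aarsd1 (-0.29, SE 0.07, adjusted p = 0.0214) and Dtd1 (-0.34, SE 0.09, adjusted p = 0.0381), which clear mischarged alanyl-tRNA and D-aminoacyl-tRNA. In dKO cells 0 of 15 were called, with a median of -0.11, beside -0.013 over all genes. The smallest adjusted p there were those of Aarsd1 (-0.25, SE 0.07, adjusted p = 0.0507), Tarsl2 (-0.26, SE 0.08, adjusted p = 0.0583) and Qrsl1, the catalytic subunit of mitochondrial glutaminyl-tRNA amidation (-0.27, SE 0.08, adjusted p = 0.0597), and 4 of 15 had an unadjusted p below 0.05, beside 19% of all genes. The scaffold genes Aimp1, Aimp2 and Eef1e1 gave -0.11, -0.09 and 0.06 in wildtype and -0.02, 0.01 and 0.19 in dKO cells.

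With 4-Cl-HIPP 0 of the 15 partners were called in either genotype. The smallest adjusted p were those of Aarsd1 in wildtype (log2 fold change -0.13, adjusted p = 0.721) and Dtd1 in dKO cells (-0.31, adjusted p = 0.252). At an unadjusted p below 0.05 there were 0 in wildtype and 1 in dKO cells, beside 8.19% and 8.48% of all genes.

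The amino acid response was followed in 29 genes, ATF4, its known targets and the GCN2 branch, a list written with earlier results of these data known. With MTOB 7 of 29 rose and 0 fell in wildtype cells, with a median log2 fold change of 0.20, and in dKO cells 7 rose and 0 fell, with a median of 0.13. Of all genes, 3.8% rose and 3.46% fell in wildtype and 3.08% rose and 3.51% fell in dKO cells. The increase was led by Slc7a11, the cystine importer, at 1.60 (SE 0.10, adjusted p = 3.13e-08) in wildtype and 1.90 (SE 0.10, adjusted p = 6.09e-09) in dKO cells. Atf4 itself rose by 0.22 (SE 0.04, adjusted p = 0.00569) and 0.25 (SE 0.04, adjusted p = 0.00265). Slc7a5, a neutral amino acid transporter, rose by 0.17 (SE 0.03, adjusted p = 0.00714) and 0.14 (SE 0.03, adjusted p = 0.0212), and its partner chain Slc3a2 by 0.26 (SE 0.06, adjusted p = 0.0160) and 0.39 (SE 0.06, adjusted p = 0.00111). In wildtype cells 22 of the 29 lay above 0 and 7 below, and in dKO cells 21 and 8, beside 46.3% and 45.8% of all genes above 0. Genes below 0 in both genotypes, none of them called, included Psat1 (-0.10 and -0.03), Pycr1 (-0.37 and -0.11), Shmt2 (-0.02 and -0.06) and Aldh18a1 (-0.05 and -0.19).

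The asparagine synthetase gene Asns, which makes the amino acid that Nars attaches, rose in wildtype cells (0.26, SE 0.07, adjusted p = 0.0220) and did not pass the test in dKO cells (0.20, SE 0.07, adjusted p = 0.0902). Ddit3, a stress target of ATF4, did not pass in either (0.20 and 0.13, adjusted p = 0.749 and 0.839), and 47.2% of the exon bases of Mars1, the methionyl enzyme, overlap Ddit3 on the opposite strand. The ATF4-C/EBP core was found for 5 synthetases among the 27 promoters searched, which did not include those of Nars and Rars. Of these 5, 0 were called with MTOB in either genotype, beside 7.26% of all genes in wildtype and 6.59% in dKO cells. So few genes cannot show a difference from these shares. The log2 fold changes of the 5 lay between -0.05 and 0.09, and a role of ATF4 was not tested.

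With 4-Cl-HIPP 0 of the 29 response genes were called in either genotype, with medians of 0.0075 and -0.0086. The smallest adjusted p in wildtype cells were those of Ddit4 (0.52, adjusted p = 0.396), Psat1 (-0.10, adjusted p = 0.437) and Cebpg (0.26, adjusted p = 0.462). In dKO cells they were those of Stc2 (-0.53, adjusted p = 0.0996), Mthfd2 (-0.17, adjusted p = 0.202) and Slc1a5 (-0.16, adjusted p = 0.367). At an unadjusted p below 0.05 there were 6 of 29 in wildtype and 4 of 29 in dKO cells, beside 8.19% and 8.48% of all genes.

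Position in the genome limits some of these values. Of the 37 synthetases, 26 share exon bases with another gene and 17 with a protein-coding gene, by the Gencode annotation on GRCm39. Nars, Rars, Qars and Lars share none. The largest shares after Mars1 were those of Mars2 with Boll (33.9%), Yars2, the tyrosyl enzyme, with Dnm1l (31.4%) and Cars2 with Naxd (29.1%), all on opposite strands.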

How the data were processed

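RNA was sequenced from 18 samples, whose labels name genotype and treatment but no batch. Per the methods, the authors depleted rRNA and used an unstranded TruSeq mRNA kit. They quantified transcripts with Salmon 1.9.0 on Gencode M28 (GRCm39) with GC correction, imported them with tximport and tested them with DESeq2 1.44.0. The sample labels name polyA RNA, so which RNA selection was used was not clear. The authors deposited 1 table holding TPM per sample, 1 signal value for each gene (its mean normalized count over samples), and their own log2 fold change and adjusted p-value columns for each inhibitor and genotype. Those last columns were not used, and raw counts were not analysed here, so depth and counting error were unknown and limma took the place of a count test.

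Genes above the 10th percentile of the mean normalized count (0.222) were fitted as log2(TPM + 1) with 6 group means over all 18 samples and a variance trend on that mean (limma 3.58.1, R 4.3.3). Contrasts were adjusted by Benjamini-Hochberg over 16383 genes. The procedure was tested on simulated data. The synthetases and lists were chosen with earlier results of these data known. Per-sample values are given for every synthetase called in a comparison and for the highest and lowest of each class, and the 3 smallest adjusted p per inhibitor for each list. Gene positions were matched by Ensembl identifier to a Gencode annotation of GRCm39. Alternatives were other pseudocounts (0.1, 0.5), expression limits, scalings and fits, a replicate block, and leaving out each sample. Figures were drawn with matplotlib 3.10.9.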

Additional observations from a re-analysis of the deposited data

Results flagged for a closer look

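Lars2, the mitochondrial leucyl-tRNA synthetase, moved in opposite directions with MTOB in the 2 genotypes. All 3 wildtype samples with MTOB lay above all wildtype vehicle samples, and all 3 dKO samples with MTOB lay below all dKO vehicle samples. The wildtype effect exceeded the dKO effect by 0.40 on the log2 scale (SE 0.08), and limma gave an unadjusted p of 0.000162 and an adjusted p of 0.106 over all genes, between 0.0634 and 0.242 over 21 alternative settings. Of all genes tested, 59 of 16383 (0.36%) showed such opposite movement without overlap with MTOB. The wildtype change alone did not pass the test, and the dKO vehicle group had the highest mean level of Lars2 of the 6 groups.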

How the results depend on the processing

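The alternatives were run for the counts of calls and for 12 synthetases, those called in a comparison and the highest and lowest of each class, in the comparisons where each had an unadjusted p below 0.05. None of these values changed direction. Of 513 alternative values for single genes, 450 stayed on their side of the threshold, 49 lost the call and 14 gained it. With MTOB in wildtype cells the count of called synthetases was 3, and 2 to 3 with 1 sample left out. With MTOB in dKO cells it was 5, 0 when only the compared groups were fitted, and 3 to 6 with 1 sample left out. For dKO against wildtype cells under vehicle it was 2, 1 without the variance trend, 1 with median-of-ratios scaling, 0 with quantile normalization, and 0 to 3 with 1 sample left out. The cause of these shifts was not tested. Both 4-Cl-HIPP comparisons and both differences between genotypes stayed at 0 under every alternative.

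Samples with the same replicate number did not deviate together (45 pairs, r from -0.141 to 0.0909), and 1 of 18 samples correlated best with its own number, so the number was treated as a name. A replicate block gave 5 calls for MTOB in wildtype cells, adding Sars2 and Vars, 6 in dKO cells and 3 for the genotype.

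Mean normalized counts were 77.0 to 1184 for mitochondrial and 635 to 4298 for cytosolic synthetases, and the former varied more within groups (median coefficient of variation 9.28% against 4.66%). Their small changes were therefore measured less precisely.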

Other observations

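Mitochondrial synthetases other than those already described are given here because their samples with MTOB lay wholly below vehicle in both genotypes, a choice made after their values were seen. Of all genes tested, 12% lay wholly below vehicle with MTOB in wildtype and 11.5% in dKO cells. The share that did so in both genotypes was not computed. Sars2, the seryl enzyme, was at 20.5, 20.8 and 21.2 TPM with vehicle and at 17.6, 14.1 and 18.5 TPM with MTOB in wildtype cells. It was at 21.1, 21.3 and 25.1 TPM and at 18.2, 17.3 and 18.7 TPM in dKO cells. The log2 fold changes were -0.30 in each genotype (SE 0.09, limma adjusted p = 0.0614 and 0.0700).

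Aars2, the mitochondrial alanyl enzyme, was at 10.3, 11.6 and 10.8 TPM with vehicle and at 9.82, 9.29 and 9.55 TPM with MTOB in wildtype cells. It was at 10.7, 10.3 and 9.92 TPM and at 8.57, 8.82 and 8.22 TPM in dKO cells. The log2 fold changes were -0.17 and -0.25 (SE 0.08, limma adjusted p = 0.241 and 0.0758). Neither gene passed the test over all genes in either genotype.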
